A study of Homo sapiens with 10 samples.

Results

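Mature miRNA levels after knockdown of IGF2BP2 were set against those after knockdown of IGF2BP3 in the established human ovarian cancer line ES-2. The comparison used 6 small RNA libraries: 3 from cells transfected with a pool of siRNAs against IGF2BP2 (siIGF2BP2) and 3 from cells given a pool against IGF2BP3 (siIGF2BP3). All 6 came from ES-2 cells grown in DMEM with FBS. Of 2576 miRNAs in the whole table, 595 were taken, namely those with a normalised value of at least 1 in at least 3 of the 6 libraries. Of these, 378 reached that value in all 6 libraries and 90 in exactly 3, while 133 miRNAs just outside the rule reached it in 2. The 595 miRNAs held at least 99.98% of the miRNA reads of every library. In this design each knockdown is the reference of the other, so "higher in siIGF2BP2" and "lower in siIGF2BP3" describe the same difference. The study also holds libraries of a control siRNA (siC), for which the labels give a source name different from that of the 6 libraries compared here. siC values are printed beside some results for orientation, but the siRNA and the source of the library cannot be told apart in them. Depletion of the IGF2BP2 and IGF2BP3 proteins or mRNAs was not analysed here.

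IGF2BP2 and IGF2BP3 are paralogous RNA-binding proteins that bind mRNAs in the cytoplasm and are known to affect their stability and translation. IGF2BP3 is an oncofetal protein, found in embryonic tissue and again in many tumours, and several IGF2BP mRNAs are known targets of let-7 miRNAs. A mature miRNA is cut from one arm of a hairpin precursor, and the bases near its 5′ end, the seed, select most of its targets, so that miRNAs with a shared seed are grouped as a family. Hairpins that lie close together in the genome are often transcribed as 1 precursor, called a cluster.

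The sequences below belong to the miRNAs on which the results turn. They were taken from RefSeq (GRCh38.p14), which matched 528 of the 595 miRNAs, and are written 5′ to 3′ with the seed (bases 2 to 8) in capitals. The first set shows the pair of miRNAs that share the miR-146 seed, and the miR-181 family, because members with the same seed did not all differ alike.
miR-146a-5p: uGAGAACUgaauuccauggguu
miR-146b-5p: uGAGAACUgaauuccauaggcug
miR-181a-5p: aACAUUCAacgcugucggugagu
miR-181b-5p: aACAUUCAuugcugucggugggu
miR-181c-5p: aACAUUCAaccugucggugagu
miR-181d-5p: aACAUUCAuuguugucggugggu
miR-146a-5p and miR-146b-5p differed at 2 of the 22 positions they have in common, both outside the seed. The miR-181b-5p and miR-181d-5p sequences differed at 1 of 23 positions.

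A second set holds further miRNAs with calls that held in each of 12 other settings and without any 1 library, printed with the measured partners that share the seed where a sequence was matched.
miR-21-5p: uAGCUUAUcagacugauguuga
miR-590-5p: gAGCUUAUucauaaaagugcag
miR-31-5p: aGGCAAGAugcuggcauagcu
miR-155-5p: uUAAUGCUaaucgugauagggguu
miR-191-5p: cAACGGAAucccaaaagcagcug
miR-222-3p: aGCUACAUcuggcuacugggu
miR-221-3p: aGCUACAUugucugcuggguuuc
miR-30a-5p: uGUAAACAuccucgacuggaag
miR-30c-5p: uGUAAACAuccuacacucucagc
miR-30e-5p: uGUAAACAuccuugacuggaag
The miR-30a-5p and miR-30e-5p sequences differed at 1 of 22 positions, and how reads that fit both were assigned is not given in the sources used here.

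In total, 30 of the 595 miRNAs (5.04%) differed between the knockdowns at a limma adjusted p under 0.05. Of these, 16 (2.69%) were higher in siIGF2BP2 and 14 (2.35%) were higher in siIGF2BP3. The 14 include miR-3934-5p, which entered the 595 only through the siIGF2BP3 libraries. The differences were mostly moderate, with a median fold of 1.58 for those higher in siIGF2BP2 and 1.595 for those higher in siIGF2BP3, and 8 of the 30 reached 2-fold. Every difference is the mean of log2(value + 1) in siIGF2BP2 minus that in siIGF2BP3, which understates the change of miRNAs with low values. The median difference over all 595 miRNAs was -0.05. The number of calls depended on single libraries: it was 12 without siIGF2BP2 replicate 2, 18 without siIGF2BP2 replicate 3, 15 without siIGF2BP3 replicate 1 and 13 without siIGF2BP3 replicate 2. The count test of edgeR on the recovered reads also called 30, of which 25 were shared, but split them into 11 higher in siIGF2BP2 and 19 higher in siIGF2BP3.

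Calls were found mainly among abundant miRNAs, where libraries of a group lay close together. A mean of 10 normalised read counts or more was reached by 284 miRNAs, of which 29 (10.2%) were called. Where the mean was 1000 or more, 16 of 56 were called, against 7 of 86 with a mean from 100 to 1000, 6 of 142 from 10 to 100 and 1 of 311 under 10. The median standard error of the log2 difference was 0.11 in the most abundant class and 0.70 in the class under 10. Among the 40 uncalled miRNAs with a mean of at least 1000, the 95% interval of the log2 difference lay within 1 unit of 0 for 38 and within 0.5 units for 26. For most miRNAs under 10, the 95% interval did not exclude a difference of 2-fold, since it stayed within 1 log2 unit of 0 for 1 of 310 uncalled miRNAs.

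**Figure D1:**
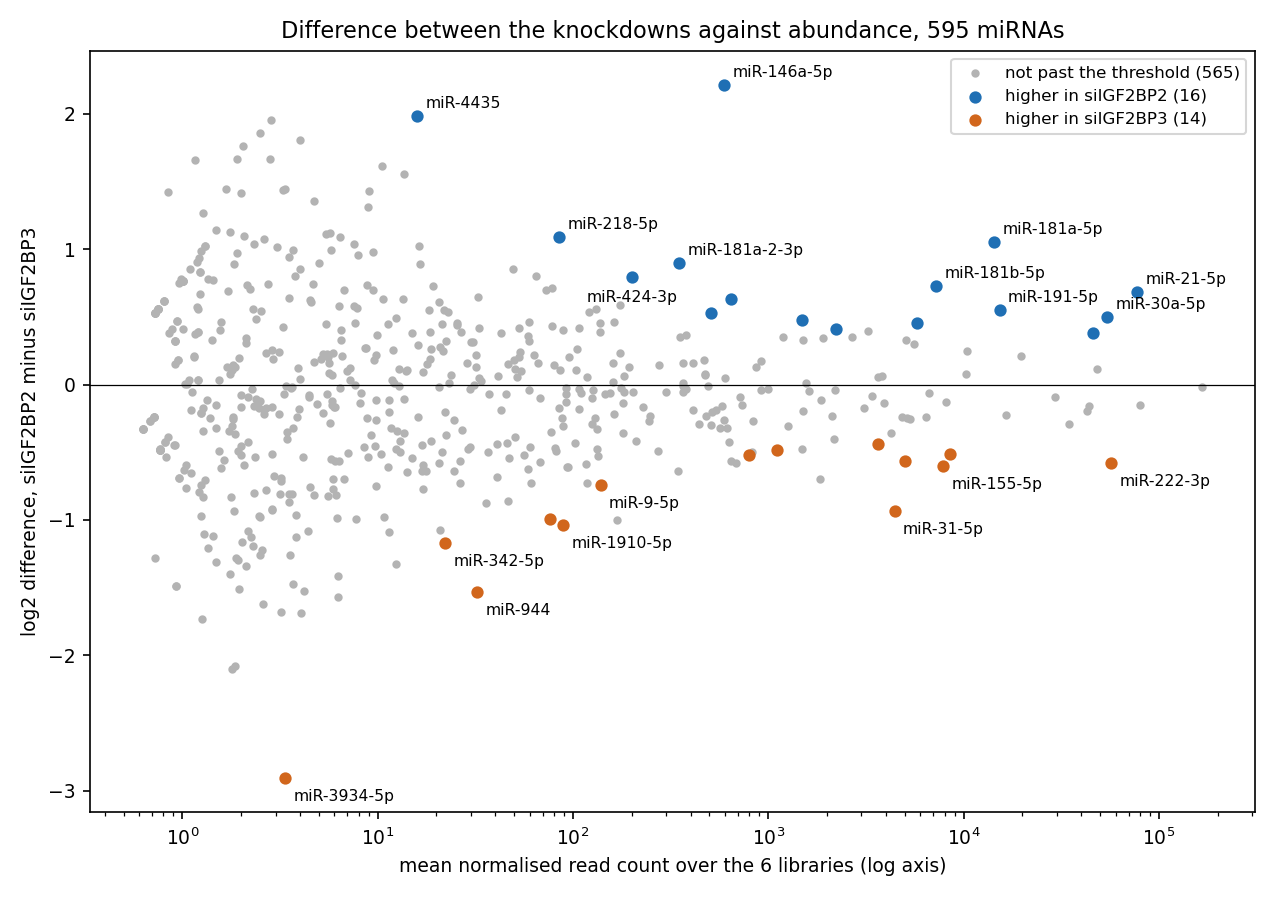
Log2 difference between the knockdowns (siIGF2BP2 minus siIGF2BP3, vertical axis) against the mean normalised read count over the 6 libraries (horizontal log axis), 1 point per miRNA. The 16 blue and 14 orange points passed the threshold, and the cloud of the 565 grey points narrows toward high abundance.

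Of the 284 miRNAs that averaged 10 or more, miR-146a-5p differed most. It is induced by NF-kB and represses the signalling adaptors TRAF6 and IRAK1. It stood at 996, 993 and 939 normalised read counts in the 3 siIGF2BP2 libraries and at 228, 202 and 201 in the siIGF2BP3 libraries. The groups were far apart, with means of 976 ± 31.8 and 210.3 ± 14.9 (SD, n = 3 each). This was a log2 difference of 2.21 (SE 0.13, limma adjusted p = 1.19e-07), or 4.63-fold. The siC libraries held 416 and 422, between the groups. Its seed partner miR-146b-5p had 211, 216 and 173 in siIGF2BP2 against 196, 211 and 213 in siIGF2BP3. Here the groups overlapped, and the 95% interval of the log2 difference ran from -0.39 to 0.28. In the GENCODE 29 annotation the hairpin of miR-146a lies in an exon of the long noncoding gene MIR3142HG on chromosome 5.

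miR-155-5p, cut from the noncoding transcript MIR155HG and known from activated immune cells, differed in the opposite direction. It had 6074, 6016 and 6663 normalised read counts in siIGF2BP2 and 9950, 9947 and 8633 in siIGF2BP3. All siIGF2BP3 libraries lay above all siIGF2BP2 libraries, with a log2 difference of -0.60 (SE 0.10, limma adjusted p = 0.00311). Of the 3 miRNAs listed as inflammation miRNAs (miR-146a-5p, miR-146b-5p and miR-155-5p), 1 was thus higher in siIGF2BP2, 1 was higher in siIGF2BP3 and 1 did not pass. Their median log2 difference was -0.05, equal at this rounding to that of all 595 miRNAs, of which 5.04% passed.

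Forms of the miR-181 family, known for its part in lymphocyte development, were higher in siIGF2BP2. Of the 7 mature forms listed, 4 passed the test, all higher in siIGF2BP2. Of all 595 miRNAs 5.04% passed, of those that averaged 10 or more 10.2%, and of those that averaged 1000 or more 28.6%. Under the deposited scaling, 125 of the 284 miRNAs that averaged 10 or more had a positive difference. All 7 listed miR-181 forms had one under that scaling and under each of the 4 others tried. Their median was 0.70 on the log2 scale. A measured form outside the list, the scarce miR-181b-3p, had 7.07, 7.64 and 8.63 normalised read counts in siIGF2BP2 against 13.97, 7.10 and 8.32 in siIGF2BP3, which overlap (log2 difference -0.25, limma adjusted p = 0.826). miR-181a-5p, the most abundant form, had 20967, 17449 and 19596 normalised read counts in siIGF2BP2 and 9421, 9981 and 8529 in siIGF2BP3. The lowest siIGF2BP2 library exceeded the highest siIGF2BP3 library, and the log2 difference was 1.05 (SE 0.10, limma adjusted p = 3.829e-05). For miR-181b-5p the values were 9585, 8479 and 9041 against 5263, 6002 and 5125, a log2 difference of 0.73 (SE 0.10, limma adjusted p = 0.000784). siC stood nearer to siIGF2BP2 for both, at 16732 and 15681 for miR-181a-5p and 8663 and 8517 for miR-181b-5p.

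The passenger arms of the miR-181a hairpins went the same way. miR-181a-2-3p had 490, 445 and 433 normalised read counts in siIGF2BP2 against 214, 286 and 238 in siIGF2BP3, with a log2 difference of 0.90 (limma adjusted p = 0.00311). miR-181a-3p had 937, 718 and 703 against 521, 529 and 461, a log2 difference of 0.63 (limma adjusted p = 0.0182). Neither pair of groups overlapped. The call of miR-181a-3p was lost in 5 of 6 fits that left out a library, all but the one without siIGF2BP2 replicate 3, with adjusted p up to 0.113. Both clusters that encode miR-181a and miR-181b, in introns of MIR181A1HG on chromosome 1 and of MIR181A2HG on chromosome 9, therefore had 3 forms called each, which were all that averaged 10 or more. Since miR-181a-5p and miR-181b-5p are each encoded in both clusters, only the passenger arms tell the clusters apart. The third cluster, of miR-181c and miR-181d, had no called form: miR-181c-5p had 83.5, 103 and 84.6 against 47.9, 52.1 and 66.6 without overlap (log2 difference 0.70, limma adjusted p = 0.0857), and miR-181d-5p had an overlap between groups and a log2 difference of 0.23. In siC, miR-181c-5p was listed at 407 and 1336, far above all 6 knockdown libraries. The 7 listed forms took 3.28%, 2.90% and 3.18% of the reads in siIGF2BP2 and 1.69%, 1.77% and 1.597% in siIGF2BP3, a difference with an exact permutation p = 0.1 (two-sided), the smallest that 3 against 3 libraries allow. Most of this share is miR-181a-5p and miR-181b-5p, both called in the same libraries, so the permutation test adds no support and only the size of the share is informative.

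**Figure D2:**
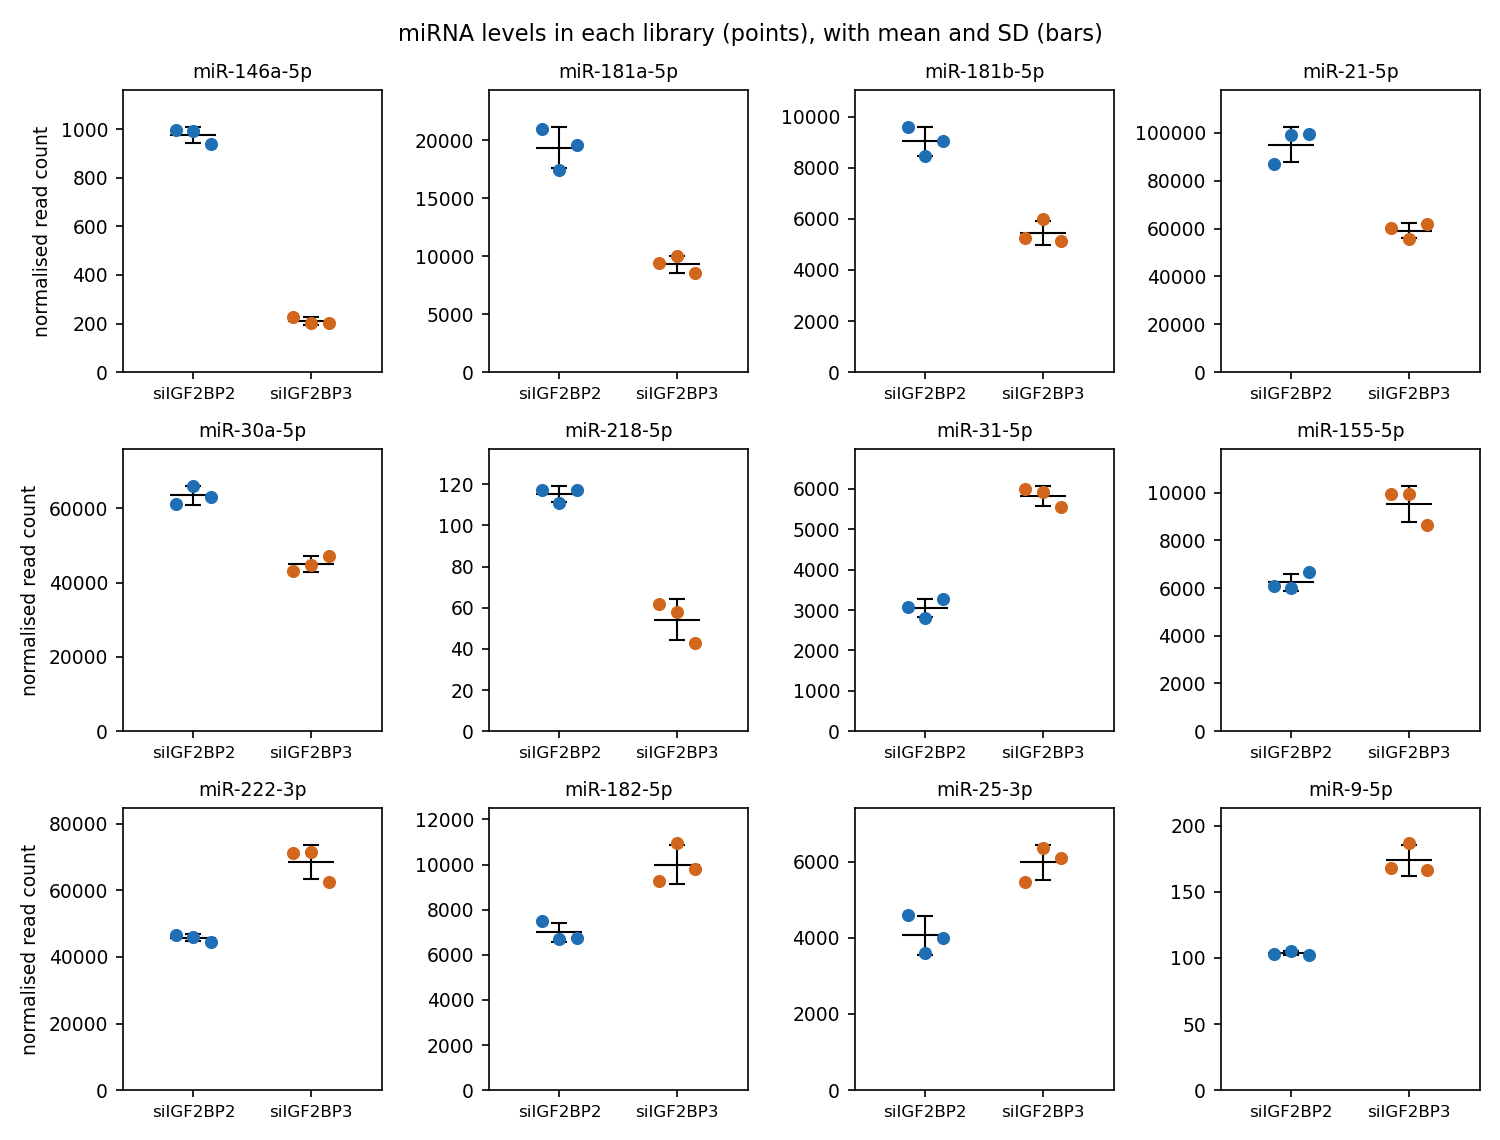
Normalised read counts of 12 called miRNAs in each library, 1 panel per miRNA with its own axis from 0; points are libraries, the long tick is the group mean and the capped bars are 1 SD. In every panel the blue siIGF2BP2 points and the orange siIGF2BP3 points do not overlap, as in miR-146a-5p, with 939 to 996 against 201 to 228.

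In order of abundance, the top 10 began with let-7a-5p, followed by miR-92a-3p, miR-21-5p, miR-222-3p, miR-30a-5p, miR-100-5p, miR-10a-5p, miR-221-3p, let-7i-5p and let-7f-5p. Of these, 4 were called, 3 of them higher in siIGF2BP2 (miR-21-5p, miR-30a-5p and miR-10a-5p) and 1 higher in siIGF2BP3 (miR-222-3p). miR-21-5p, an oncogenic miRNA that represses PDCD4, had 86807, 98995 and 99613 normalised read counts in siIGF2BP2 and 60131, 55537 and 61734 in siIGF2BP3. The groups did not overlap, and the log2 difference was 0.68 (SE 0.09, limma adjusted p = 0.000784). It took 8.80% to 10.5% of the reads of a siIGF2BP2 library and 5.76% to 6.75% of a siIGF2BP3 library. The other arm of its hairpin, miR-21-3p, had 2923, 4176 and 3521 against 2225, 2732 and 6323. Those groups overlapped, the log2 difference was 0.05 with a 95% interval from -0.56 to 0.67, and it was 0.51 (limma adjusted p = 0.0894) without siIGF2BP3 replicate 3, which held the highest value.

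miR-30a-5p, of a family known from the repression of fibrosis genes such as CCN2, had 61265, 66175 and 63068 normalised read counts in siIGF2BP2 and 43140, 44713 and 47226 in siIGF2BP3. All siIGF2BP2 libraries exceeded all siIGF2BP3 libraries, by 0.50 on the log2 scale (SE 0.09, limma adjusted p = 0.00423). miR-30c-5p had 6787, 6299 and 6829 against 4913, 5230 and 4403, a log2 difference of 0.46 (limma adjusted p = 0.0176). Its call was lost in 4 of the 6 fits without a library (siIGF2BP2 replicates 2 and 3, siIGF2BP3 replicates 1 and 3), with adjusted p up to 0.09, and also with upper-quartile scaling and in edgeR. The other 6 of the 8 listed members of the miR-30 family did not pass, and the median of the 8 was -0.08. Of all 595 miRNAs 5.04% passed, and of those that averaged 1000 or more, as both called forms did, 28.6%. Measured passenger arms outside the list did not pass either: miR-30b-3p, miR-30c-1-3p and miR-30c-2-3p had log2 differences of 0.23, -0.07 and 0.14. miR-30e-5p, for example, had 3053, 4342 and 3759 against 3778, 3417 and 5106, and miR-30d-5p had a log2 difference of -0.13.

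miR-10a-5p, encoded next to HOXB4 in the HOXB gene cluster, had 55346, 50465 and 50891 normalised read counts in siIGF2BP2 and 38203, 42457 and 39927 in siIGF2BP3. The groups did not overlap and the log2 difference was 0.38 (limma adjusted p = 0.0251), but the call held in only 1 of 6 fits without a library, the one without siIGF2BP3 replicate 3, and adjusted p reached 0.113 in the others. It was also lost with TMM factors, with upper-quartile scaling and in edgeR. miR-10a-5p was the single called member among the 7 listed miRNAs of the HOX clusters, against 5.04% of all 595 miRNAs. All 7 had positive differences, from 0.07 to 0.46 under the deposited scaling, and were positive under the 4 others too.

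miR-191-5p, from an intron of DALRD3, had 19354, 17523 and 17655 normalised read counts in siIGF2BP2 and 12265, 13379 and 11626 in siIGF2BP3. The groups were apart by 0.55 on the log2 scale (SE 0.09, limma adjusted p = 0.00399). Its hairpin neighbour miR-425 was measured in both arms. All 4 forms of the pair had positive differences under the deposited scaling and the 4 others, with a median of 0.55. Of the other 3, miR-425-3p had 46.7, 70.6 and 74.2 against 29.9, 40.2 and 33.3 without overlap but missed the threshold (limma adjusted p = 0.0818).

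miR-218-5p, encoded in introns of the axon guidance genes SLIT2 and SLIT3, had 117, 111 and 117 normalised read counts in siIGF2BP2 and 61.9, 58.0 and 42.8 in siIGF2BP3. This was 2.13-fold (log2 difference 1.09, SE 0.21, limma adjusted p = 0.00774), and the call held whichever library was left out. siC was higher than both knockdowns, at 277 and 213. With all 4 groups of the study in the fit, adjusted p was 0.0774.

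miR-424-3p, miR-345-5p, miR-125a-5p and miR-27b-3p made up the rest of those higher in siIGF2BP2, together with the scarce miR-4435. miR-424-3p had 259, 271 and 235 normalised read counts in siIGF2BP2 against 162, 125 and 155 in siIGF2BP3 (log2 difference 0.79, limma adjusted p = 0.0113). It is the less studied arm of the miR-424 hairpin, of which the other arm carries a seed of the miR-15/16 type, and its call was lost without siIGF2BP2 replicate 2 or siIGF2BP3 replicate 2 (adjusted p up to 0.0573). For miR-345-5p (log2 difference 0.53, limma adjusted p = 0.0299) and for miR-125a-5p, a relative of the lin-4 miRNA of worms (0.41, limma adjusted p = 0.0405), leaving out any 1 of the 6 libraries ended the call, with adjusted p up to 0.12 and 0.17. Both were also lost with upper-quartile scaling and in edgeR, and miR-125a-5p with TMM factors. miR-27b-3p had a log2 difference of 0.48 (limma adjusted p = 0.0405) and kept the call only without siIGF2BP3 replicate 3 (adjusted p otherwise up to 0.179). It was also lost with a pseudocount of 0.1, in edgeR and under all scalings tried except median-of-ratios factors. miR-4435 had 28.3, 26.7 and 20.7 against 1.996, 10.6 and 7.14, a log2 difference of 1.99 (limma adjusted p = 0.0311). Its groups did not overlap, but it rests on few reads, and the call was kept only without siIGF2BP3 replicate 2 (adjusted p up to 0.098). It was lost with a pseudocount of 0.1 and with all 4 groups in the fit.

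On the side of siIGF2BP3, the largest called difference at a mean of 1000 or more was that of miR-31-5p, a miRNA known from studies of invasion and metastasis. It had 3073, 2810 and 3274 normalised read counts in siIGF2BP2 and 6005, 5919 and 5544 in siIGF2BP3. The group means were 3052 ± 232 and 5823 ± 245 (SD, n = 3 each), and the log2 difference was -0.93 (SE 0.10, limma adjusted p = 7.74e-05). siC, at 3686 and 3531, lay nearer to siIGF2BP2. The other arm, miR-31-3p, had 35.4, 40.1 and 20.7 against 87.8, 34.3 and 60.7, with a log2 difference of -0.86 that did not pass (limma adjusted p = 0.203).

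miR-221 and miR-222, encoded side by side on chromosome X, repress the cell cycle inhibitor CDKN1B (p27). miR-222-3p had 46698, 46013 and 44526 normalised read counts in siIGF2BP2 and 71233, 71462 and 62580 in siIGF2BP3. All siIGF2BP3 values were higher, with a log2 difference of -0.58 (SE 0.09, limma adjusted p = 0.00225). miR-221-3p, with the same seed, had 40861, 36133 and 46660 against 49099, 49702 and 39357. Those groups overlapped, and the log2 difference was -0.16 (95% interval from -0.42 to 0.10). The minor arms miR-221-5p and miR-222-5p had no overlap and log2 differences of -0.47 and -0.49, with limma adjusted p of 0.0515 and 0.118. edgeR called miR-221-5p (adjusted p = 0.0318). All 4 forms had negative differences under the deposited scaling and the 4 others. Limma called 1 of the 4, against 5.04% of all 595 miRNAs.

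A pair of other clusters had 2 called members each, all higher in siIGF2BP3. The cluster of miR-183, miR-96 and miR-182, known from sensory cells and from repression of FOXO factors, had 2 of 4 listed forms called and all 4 negative under the deposited scaling and the 4 others, with a median of -0.49. Of all 595 miRNAs 5.04% were called and 323 were negative. Of those that averaged 1000 or more, as both called forms here did, 28.6% were called. The measured miR-182-3p, outside the list, had at most 4.24 normalised read counts in any library (log2 difference 0.13, limma adjusted p = 0.943). miR-182-5p had 7491, 6721 and 6755 normalised read counts in siIGF2BP2 and 9250, 10932 and 9814 in siIGF2BP3. miR-183-5p had 995, 857 and 926 against 1257, 1336 and 1289. Neither overlapped, and the log2 differences were -0.51 (limma adjusted p = 0.00908) and -0.48 (limma adjusted p = 0.0219). miR-182-5p lost its call without siIGF2BP2 replicate 2 or siIGF2BP3 replicate 2 (adjusted p up to 0.0562), and miR-183-5p kept it only without siIGF2BP2 replicate 1 (adjusted p otherwise up to 0.13). Both calls were lost with TMM factors, and that of miR-183-5p also with upper-quartile scaling. The third hairpin of the cluster, miR-96, gave 11.3, 26.7 and 20.7 against 29.9, 15.4 and 30.9, which overlap.

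The miR-106b-25 cluster, which lies in an intron of the replication gene MCM7 and is a paralog of the oncogenic miR-17-92 cluster, had 2 of 6 forms called and 5 of 6 negative (miR-93-3p was at 0.31), with a median of -0.40. miR-25-3p had 4607, 3599 and 3987 normalised read counts in siIGF2BP2 and 5476, 6352 and 6103 in siIGF2BP3 (log2 difference -0.56, limma adjusted p = 0.0113). miR-93-5p had 3121, 2809 and 3410 against 4358, 4588 and 3707 (log2 difference -0.44, limma adjusted p = 0.0437). Groups were apart in both, but the call of miR-25-3p was lost without siIGF2BP2 replicate 2, siIGF2BP3 replicate 1 or siIGF2BP3 replicate 2 (adjusted p up to 0.061). That of miR-93-5p held only without siIGF2BP3 replicate 3 and otherwise reached adjusted p of 0.228. With TMM factors both were lost. miR-93-5p was also lost with a pseudocount of 0.1, median-of-ratios factors, upper-quartile scaling, all 4 groups in the fit and DESeq2. Against 5.04% of all 595 miRNAs, limma called none of the 13 tested on a list of miR-17-92 and its paralogs, which includes the related miR-92b-3p. edgeR called 1 of them, miR-19a-3p, with 72.2, 145 and 109 normalised read counts in siIGF2BP2 against 202, 131 and 347 in siIGF2BP3 (log2 difference -1.11 and adjusted p = 0.0121 in edgeR, -0.997 and 0.0997 in limma). Its groups overlapped. The measured miR-19a-5p, outside the list, had a limma adjusted p of 0.755. For the 13, the limma median was -0.15, and 11 were negative under the deposited scaling but 9 under TMM factors. miR-92a-3p, the second most abundant miRNA, had a log2 difference of -0.15 with a 95% interval from -0.38 to 0.08.

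miR-9-5p, a miRNA enriched in brain, had 103, 105 and 102 normalised read counts in siIGF2BP2 and 168, 187 and 166 in siIGF2BP3. The spread within groups was small, and the log2 difference was -0.74 (SE 0.16, limma adjusted p = 0.0176). miR-484, made without Drosha from the 5′ end of a transcript overlapping NDE1, had 656, 607 and 691 against 814, 961 and 1048 (log2 difference -0.52, limma adjusted p = 0.0311). Neither pair of groups overlapped. miR-9-5p passed in 2 of 6 fits without a library (without siIGF2BP2 replicate 1 or siIGF2BP3 replicate 3, adjusted p otherwise up to 0.0716), and was lost with all 4 groups in the fit and with the highest copy alone (adjusted p up to 0.177). miR-484 passed only without siIGF2BP3 replicate 1, with adjusted p otherwise up to 0.148, and was lost with TMM factors and upper-quartile scaling.

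The other 5 miRNAs higher in siIGF2BP3 had means under 100. miR-1910-5p had 70.7, 42.0 and 63.9 normalised read counts in siIGF2BP2 and 110, 128 and 121 in siIGF2BP3, and miR-7706 had 63.7, 51.5 and 38.0 against 91.8, 114 and 97.5. miR-944, encoded in an intron of the squamous epithelial factor TP63, had 12.7, 11.5 and 25.9 against 51.9, 37.9 and 53.5. Their groups did not overlap, with log2 differences of -1.04 (limma adjusted p = 0.0167), -0.99 (limma adjusted p = 0.0219) and -1.54 (limma adjusted p = 0.0176). These calls passed in 2, 1 and 2 of the 6 fits without a library, and each held without siIGF2BP2 replicate 1. Leaving out siIGF2BP2 replicate 2 or any siIGF2BP3 library ended each of them, with adjusted p up to 0.098, 0.112 and 0.17, and for miR-7706 so did leaving out siIGF2BP2 replicate 3. miR-3934-5p had 0 reads in all siIGF2BP2 libraries and 15 reads over the siIGF2BP3 libraries, with values of 5.99, 9.47 and 4.76. It is among the 7 miRNAs with a value of 1 or more in no siIGF2BP2 library, and met the rule of 3 libraries only through siIGF2BP3. Its limma adjusted p of 0.0113 is therefore no independent support for a difference. Against 3 reads for the siIGF2BP2 group as a whole, near the 95% limit for a count of 0, the siIGF2BP3 mean was 4.06-fold higher. This leaves aside the counting error of the 15 reads. The call was lost without siIGF2BP3 replicate 1 or 2 (adjusted p up to 0.0699). The fifth, miR-342-5p, is described with its hairpin.

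Next by limma p at a mean of 10 or more, and not past the threshold, came miR-199b-5p, miR-125b-1-3p, miR-221-5p, miR-140-3p and miR-3615. miR-199b-5p had 90.5, 85.9 and 70.8 normalised read counts in siIGF2BP2 against 39.9, 49.7 and 51.1 in siIGF2BP3 (limma adjusted p = 0.0512). miR-125b-1-3p had 1960, 1787 and 1882 against 2223, 2701 and 2526 (limma adjusted p = 0.0515). edgeR called 3 of the 5, miR-221-5p (adjusted p = 0.0318), miR-140-3p (0.0343) and miR-3615 (0.0315). None of the 5 had overlapping groups, which was also true of all 30 called miRNAs. Groups without overlap were common here: of the 284 miRNAs that averaged 10 or more, 99 (34.9%) had them, and 70 of these 99 were not called. The largest such uncalled differences were those of miR-4745-5p, with 17.0, 15.3 and 15.5 against 1.996, 5.92 and 7.14 (log2 difference 1.61, limma adjusted p = 0.077), and of miR-877-5p, a mirtron, with 18.4, 17.2 and 24.2 against 13.97, 5.92 and 2.38 (1.56, limma adjusted p = 0.107). miR-32-3p and miR-3909 followed on the other side, with log2 differences of -1.32 and -1.09.

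**Figure D3:**
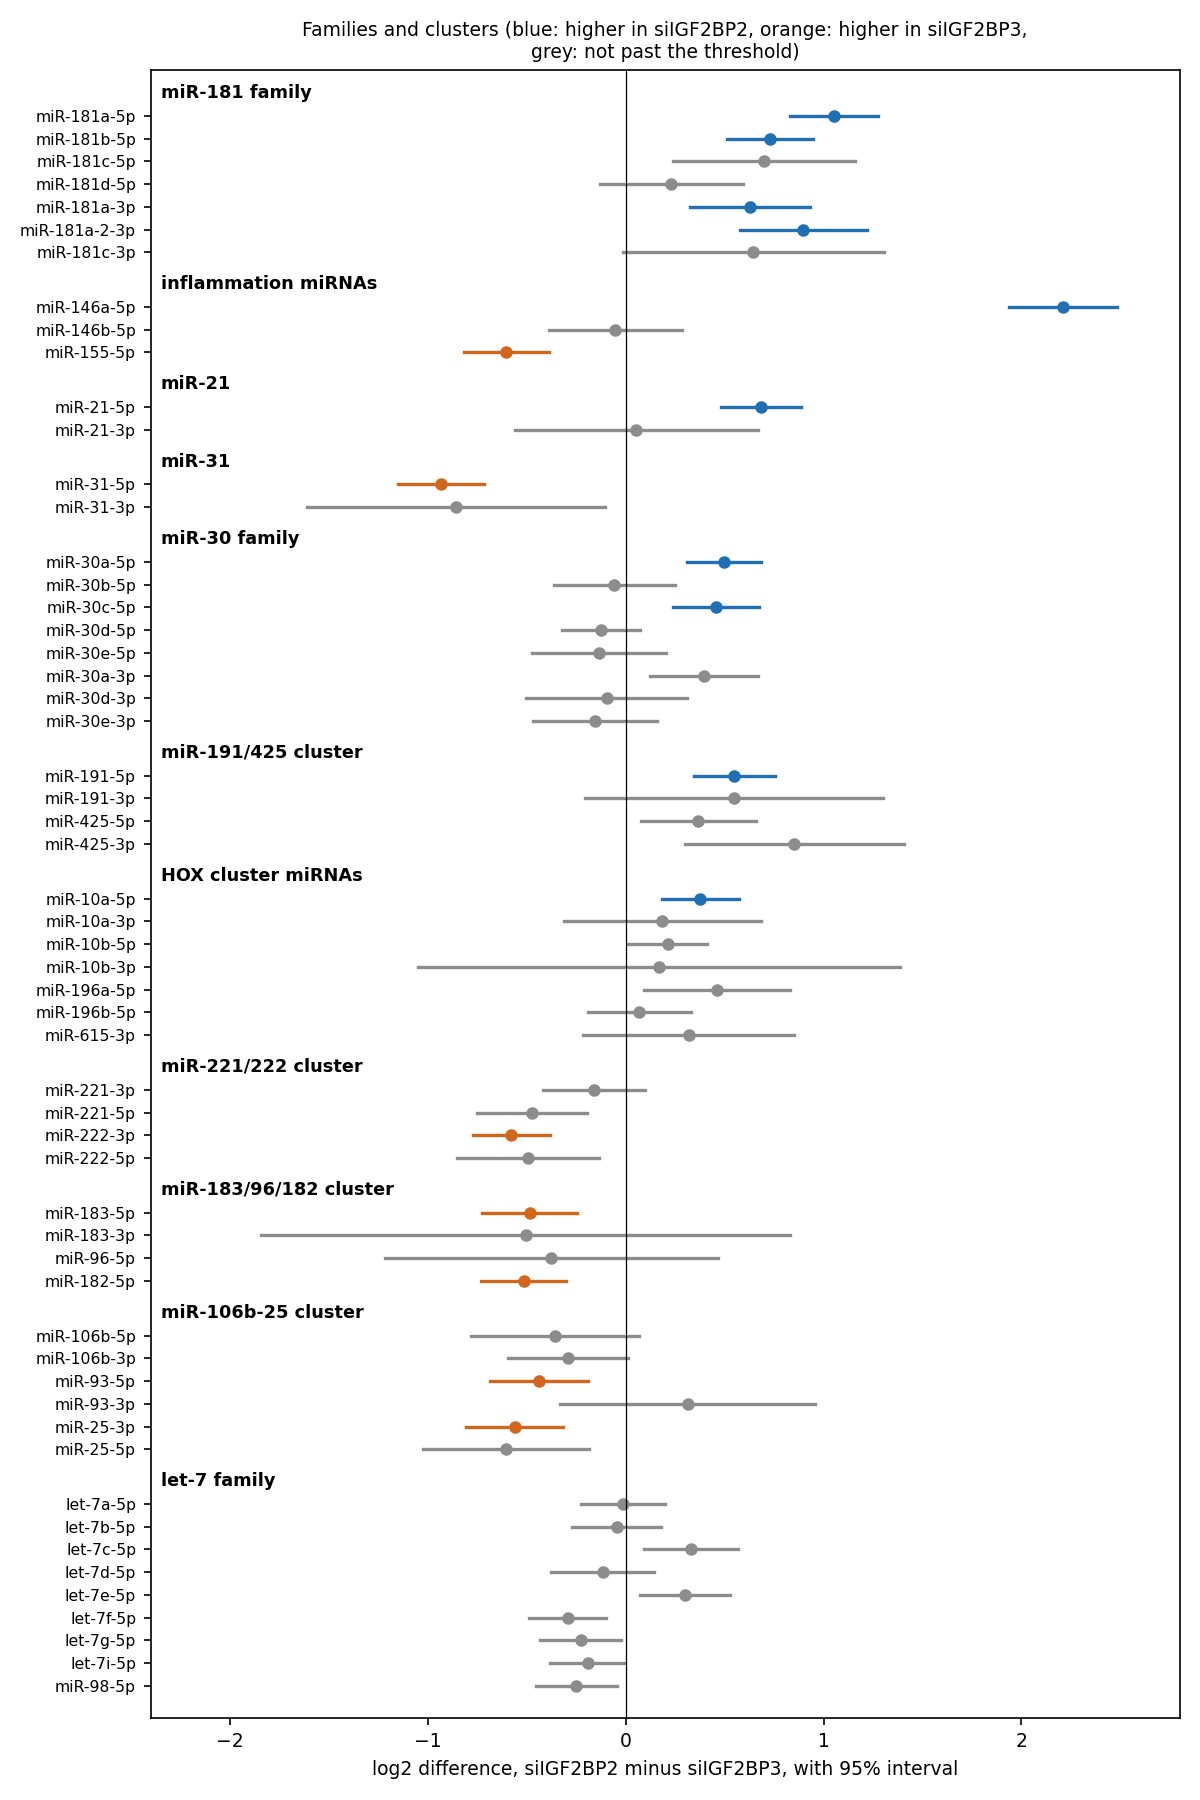
Log2 difference (siIGF2BP2 minus siIGF2BP3) with its 95% interval for the listed members of 11 miRNA families and clusters; blue and orange mark called miRNAs, grey the others. The points of the 7 listed miR-181 forms lie right of 0 (2 of the intervals reach past it), the 4 listed forms of miR-183, miR-96 and miR-182 and the 4 of miR-221 and miR-222 lie left of it, and the let-7 points lie between -0.29 and 0.33.

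The let-7 family, whose targets include HMGA2, RAS genes and IGF2BP mRNAs, had no called member among 9. All 9 averaged 1000 or more, a class in which 28.6% of miRNAs were called, against 5.04% of all miRNAs. Log2 differences ran from -0.29 for let-7f-5p to 0.33 for let-7c-5p. let-7a-5p, the most abundant miRNA, had 172566, 167016 and 154817 normalised read counts in siIGF2BP2 and 180235, 173156 and 147602 in siIGF2BP3. Its groups overlapped, and the 95% interval of the log2 difference ran from -0.23 to 0.20. let-7f-5p had 31164, 31833 and 30709 against 40436, 39475 and 35141 without overlap (limma adjusted p = 0.0875). As a share of reads the family took 28.1%, 28.4% and 27.1% in siIGF2BP2 and 32.6%, 30.6% and 28.1% in siIGF2BP3. The group means of 27.8% ± 0.683 and 30.4% ± 2.25 (SD, n = 3 each) did not pass a two-sided exact permutation test (p = 0.2, smallest possible 0.1). Of the 9 differences, 2 were positive under the deposited scaling, 3 with median-of-ratios factors and 4 with TMM factors, so the family had no common direction.

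Values were also summed over the miRNAs that share a seed, to ask whether the total available for a set of targets differed. Of 52 seeds with at least 2 miRNAs, 7 (13.5%) differed, 5 with higher sums in siIGF2BP2. Without any 1 library, the sums led by miR-146a-5p, miR-181a-5p, miR-21-5p and miR-30a-5p still passed. The seed GAGAACU of miR-146a-5p and miR-146b-5p had sums of 1207, 1209 and 1112 normalised read counts in siIGF2BP2 against 423, 413 and 414 in siIGF2BP3. The added miR-146b-5p brought the log2 difference to 1.49 (SE 0.09, limma adjusted p = 1.534e-05), from 2.21 for miR-146a-5p alone. The seed ACAUUCA of the 4 main miR-181 forms had sums of 30829, 26199 and 28926 against 14872, 16216 and 13881, with a log2 difference of 0.93 (limma adjusted p = 0.000505). For AGCUUAU, nearly all of it miR-21-5p, the log2 difference of the sums was 0.68 (limma adjusted p = 0.00131).

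The seed GUAAACA of miR-30a-5p, miR-30c-5p and miR-30e-5p differed by 0.45 (limma adjusted p = 0.00542) and UCACAGU of miR-27a-3p and miR-27b-3p by 0.42 (limma adjusted p = 0.0441). miR-30b-5p and miR-30d-5p had no matched sequence and were not in that sum. Higher in siIGF2BP3 were GCUACAU of miR-221-3p and miR-222-3p, with a log2 difference of -0.39 (limma adjusted p = 0.0301), and CAGGCUC, led by miR-484, with -0.51 (limma adjusted p = 0.0301). Both seeds higher in siIGF2BP3 and the UCACAGU seed lost their calls with TMM factors (adjusted p up to 0.0887), without siIGF2BP2 replicate 2 (up to 0.14), without siIGF2BP2 replicate 3 (up to 0.0868) and without siIGF2BP3 replicate 2 (0.083). UCACAGU joins 2 miRNAs that differ at 1 of 21 positions.
miR-27a-3p: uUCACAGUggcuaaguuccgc
miR-27b-3p: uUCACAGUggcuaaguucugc
miR-27a-3p had 1229, 1447 and 1328 normalised read counts in siIGF2BP2 against 932, 1061 and 1152 in siIGF2BP3, and miR-27b-3p had 1821, 1758 and 1604 against 1062, 1271 and 1403. Neither pair of groups overlapped, and the first did not pass by itself (limma adjusted p = 0.133).

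Rescaling a library moves both arms of a hairpin alike, apart from the pseudocount, so the arms were also compared as a ratio of log2(value + 1) levels within a library. Arms encoded in several hairpins, such as miR-181a-5p, miR-30c-5p, let-7a-5p and miR-125b-5p, sum over them and enter more than 1 ratio. Of 66 hairpins with a mean of at least 10 in each arm, 44 had differences of the same sign in both arms. The Pearson correlation of the arms' differences over these hairpins was 0.449 and Spearman's rho was 0.439, given as a description of 66 hairpins that share the same 6 libraries. At least 1 arm was called in 14 hairpins, and in 10 of these the other arm had the same sign. Both arms were called in 2, MIR181A1 and MIR181A2, which have miR-181a-5p in common.

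The arm ratio itself differed for 1 of the 66 hairpins (1.52%), MIR342, which lies in an intron of EVL. Its arms are shown because they differed in opposite directions.
miR-342-5p: aGGGGUGCuaucugugauuga
miR-342-3p: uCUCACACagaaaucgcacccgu
miR-342-5p had 14.1, 13.4 and 12.1 normalised read counts in siIGF2BP2 and 27.9, 31.9 and 33.3 in siIGF2BP3, a log2 difference of -1.17 (limma adjusted p = 0.0395). miR-342-3p had 65.1, 68.7 and 70.8 against 67.9, 47.3 and 36.9, which overlapped (log2 difference 0.46, limma adjusted p = 0.358). The log2 ratio of the 5p to the 3p arm was -2.29 in siIGF2BP2 and -0.65 in siIGF2BP3, a difference of -1.64 (SE 0.30, limma adjusted p = 0.0489). This single call did not hold with a pseudocount of 5, nor without any library other than siIGF2BP3 replicate 1, and miR-342-5p itself lost its call whichever library was left out (adjusted p from 0.0728 to 0.114), with TMM factors and in DESeq2. Without siIGF2BP3 replicate 1, 3 hairpins were called. Next came MIR27B, where miR-27b-5p had 28.3, 24.8 and 20.7 against 23.9, 40.2 and 40.4 while miR-27b-3p was called in the other direction (ratio difference -0.94, limma adjusted p = 0.0845).

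**Figure D4:**
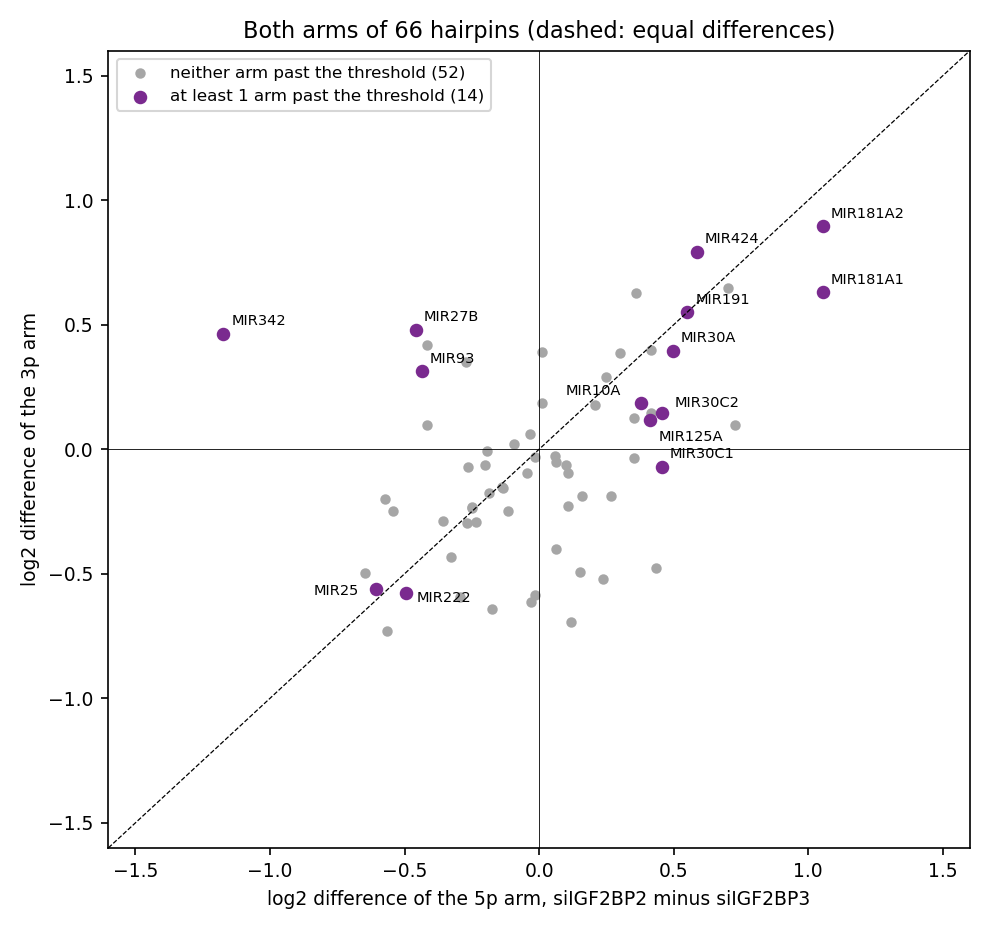
Log2 difference (siIGF2BP2 minus siIGF2BP3) of the 3p arm (vertical) against that of the 5p arm (horizontal) for 66 hairpins; purple points have at least 1 called arm and the dashed line marks equal differences. MIR181A1 and MIR181A2 lie at the upper right, MIR222 and MIR25 at the lower left, and MIR342 far off the line with -1.17 for the 5p and 0.46 for the 3p arm.

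Hairpins of the same strand with gaps of up to 10 kb formed 28 groups of neighbours with at least 2 miRNAs that averaged 10 or more. A shared sign was common, since in 18 of the 28 groups all of these miRNAs had the same sign. A called miRNA was held by 10 of the 28, and 5 of the 10 had a shared sign. These 5 included both clusters of miR-181a and miR-181b, which have miR-181a-5p and miR-181b-5p in common. The rest were those of miR-183, miR-96 and miR-182, of miR-221 and miR-222, and of miR-191 and miR-425. In the other 5 of the 10 the signs were mixed, as in the miR-424 cluster. There miR-424-5p had 163, 235 and 235 normalised read counts in siIGF2BP2 against 130, 123 and 165 in siIGF2BP3 (log2 difference 0.59, limma adjusted p = 0.107). Its neighbours miR-450a-5p and miR-450b-5p had log2 differences of -0.50 and -0.44 (limma adjusted p of 0.496 and 0.52).

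Most of the other lists held no miRNA called by limma. Of all 595 miRNAs 5.04% were called, and 10.2% of those that averaged 10 or more. In lists this small, few or no calls therefore do not set a family apart from the rest. None was called among the 11 let-7 passenger arms, the 7 members of the miR-15/16 family, the 5 of miR-29, the 3 of miR-26, the 7 of the miR-148, miR-152, miR-130 and miR-301 families, the 2 of miR-103 and miR-107, the 5 of miR-28, miR-151 and miR-708, the 6 of miR-378 or the 4 of miR-224 and miR-452. The same held for 6 of miR-22, miR-132 and miR-212, 8 of the cluster of miR-532, miR-500, miR-502 and miR-660, 2 of the miR-34 family and 2 arms of miR-210, a miRNA induced by hypoxia. miR-210-3p had 28.3, 28.6 and 19.0 normalised read counts against 19.96, 18.9 and 20.2, and its groups overlapped. The 6 listed miR-378 forms had 5 negative differences and a median of -0.51, and the measured miR-378b, miR-378e and miR-378f, outside the list, had -0.59, -0.48 and -0.35. These lists leave out some minor arms and scarce relatives among the 595 miRNAs, none of which limma called. In the miR-23, miR-27 and miR-24 clusters 1 of 8 was called (miR-27b-3p), in miR-99/100 and miR-125 1 of 9 (miR-125a-5p), in the cluster of miR-424, miR-503, miR-542 and miR-450 1 of 8 (miR-424-3p), and among miR-320, miR-484 and mirtrons 1 of 7 (miR-484).

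Depth ranged from 462724 to 815312 recovered reads, 1 read being worth 1.18 to 1.996 normalised read counts, and 559 to 641 miRNAs had a read in each library. A principal component that took 42.3% of the variance separated the groups. Chi-square per degree of freedom was 6.80 to 37.2 between libraries of a group, above what read sampling gives, and 68.9 to 92.2 across groups. The called miRNAs higher in siIGF2BP2 took 27.2% to 28.9% of the reads there and 18.9% to 20.1% in siIGF2BP3. For those higher in siIGF2BP3, the share of reads was 7.36% to 7.45% in the siIGF2BP2 libraries against 10.8% to 11.8%. The direction of both shares follows from the choice of these miRNAs by their calls in the same libraries, so only their size is informative. The 10 most abundant miRNAs together took 68.7% ± 0.525 and 68.5% ± 0.557 (SD, n = 3 each, two-sided exact permutation p = 0.7). The siC mean lay between the group means for 26 of the 30 called miRNAs and above both for 4: miR-218-5p, miR-3934-5p, miR-30c-5p and miR-27b-3p. siC differed from all 6 libraries elsewhere too, with 1089 and 1355 for miR-143-3p, which was at most 11.5 in them.

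Of the miRNAs listed as typical of other cell types, 1 was called, against 5.04% of all 595 miRNAs. The miR-200 epithelial family had 3 of 6 members measured at means of 1.05 to 2.91, and the 14q32 cluster had 5 of 33 measured at means of up to 6.08; none was called. Of 11 miRNAs of muscle, liver and neural tissue, miR-9-5p alone was measured, and it was called. Mesenchymal miRNAs had 5 of 7 measured and none called, with miR-145-5p and miR-214-3p at 0 reads. Of the 5, miR-199a-3p and miR-199b-3p have the same mature sequence, so they are not separate measurements, and they held most of the reads. The mesenchymal miRNAs took 0.472% to 0.540% of reads in siIGF2BP2 and 0.568% to 0.589% in siIGF2BP3, without overlap (exact permutation p = 0.1, two-sided, the smallest possible). Blood cell miRNAs had 3 of 8 measured and none called, with miR-223-3p and miR-486-5p at 0 reads, and took 0.0440% to 0.0642% of reads in siIGF2BP2 and 0.0557% to 0.163% in siIGF2BP3 (two-sided exact permutation p = 0.4). Among them miR-142-5p had 410.3, 555.6 and 502.5 normalised read counts against 564.8, 501.7 and 1313, so that the difference between means came from siIGF2BP3 replicate 3; without that library the log2 difference went from -0.57 to -0.13. siIGF2BP3 replicate 3 exceeded the next highest library of its group by over 1.5 times for 21 miRNAs (5 to 11 for the others). In the opposite direction, siIGF2BP3 replicate 1 lay under the next lowest by 1.5 times for 20 miRNAs and siIGF2BP2 replicate 1 for 18 (7 to 14 for the others). Leaving out siIGF2BP3 replicate 3 kept 19 of the 30 calls. Entries whose sequence overlaps that of snoRNAs, tRNAs or other small RNAs took 0.539% ± 0.400 and 0.454% ± 0.149 of reads (SD, n = 3 each, two-sided exact permutation p = 0.8), and none of 13 was called. The most abundant of them, miR-1291, which lies within a small nucleolar RNA gene, had 491 normalised read counts in siIGF2BP2 replicate 1 and 6436 and 7340 in the other two.

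Calls that held without any 1 of the libraries numbered 11 of 30, and 15 held under all of the 12 other settings (pseudocount, scaling, filter, tool, groups and copies). Not among these 15 is miR-3934-5p, which was tested in 10 of the settings and held in all 10. The 10 that passed all of both were 7 higher in siIGF2BP2 (miR-146a-5p, miR-30a-5p, miR-21-5p, miR-191-5p, miR-181a-2-3p, miR-181b-5p and miR-181a-5p) and 3 higher in siIGF2BP3 (miR-31-5p, miR-222-3p and miR-155-5p). The plot of adjusted p with each library left out shows how near the others lay to the threshold.

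**Figure D5:**
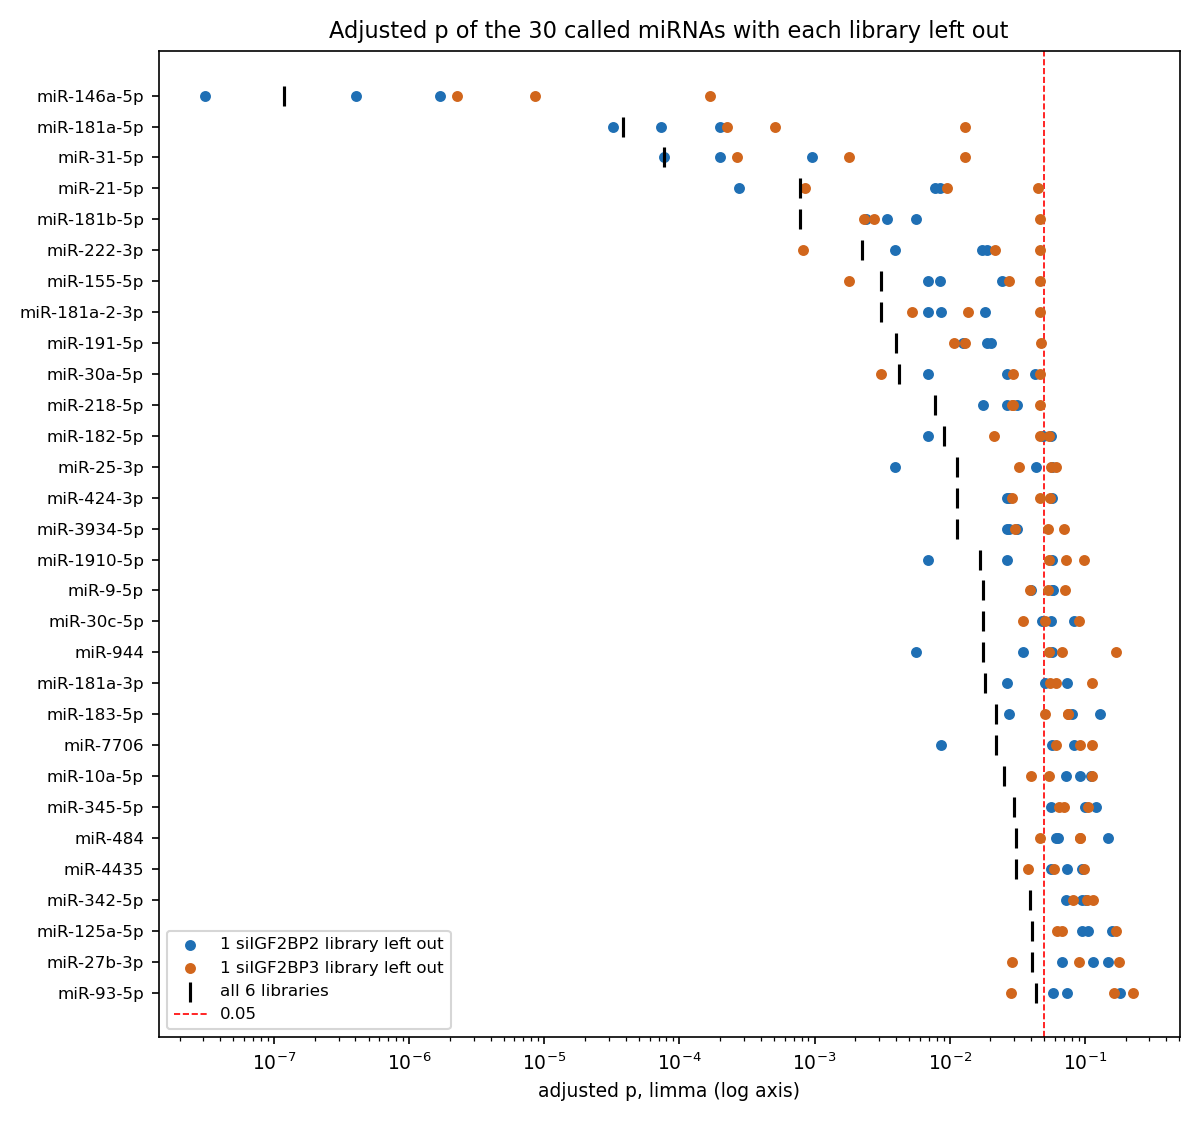
Limma adjusted p (log axis) of each of the 30 called miRNAs, with all 6 libraries (black tick) and with 1 library left out (blue: a siIGF2BP2 library, orange: a siIGF2BP3 library). All 6 points lie left of the dashed line at 0.05 for the 11 miRNAs at the top, from miR-146a-5p to miR-218-5p, and points cross it for the other 19.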

How the data were processed

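Small RNA libraries (TRIZOL, Illumina TruSeq small RNA kit, size selection, per the labels' protocols) of ES-2 cells were compared. The deposited values are a normalised read count signal per mature miRNA, made by the authors. Tools used were cutadapt 1.6, Bowtie2 2.2.4 and featureCounts 1.4.6 with build hg19, and edgeR 3.12, per the submitters' processing notes (settings, miRNA annotation and scaling: not given in the sources used here). In each library 100% of values were whole multiples of 1 read (tolerance 0.01 reads), so reads were recovered. Rows of further genomic copies (218 of 2794) were summed. 0 columns of other samples were left unused. No coordinates are printed, since the annotation used (GENCODE 29, RefSeq GRCh38.p14) does not use hg19.

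The test was limma 3.58.1 (R 4.3.3) with an intensity trend on log2(value + 1) over 595 miRNAs, with no replicate block and Benjamini-Hochberg adjustment at 0.05. It was planned for normalised values. edgeR 4.0.16 and DESeq2 1.42.0 on the recovered reads, other pseudocounts, scalings, filters, all 4 groups, the highest copy alone, a replicate block and leaving out each library were alternatives. Seed sums were fitted in the same way, and arm ratios with limma without the intensity trend. Fits were tested on simulated data. For shares of reads, exact permutation tests (two-sided) were used. The printed intervals of log2 differences come from the limma fit and cover the spread between libraries. The floor of 3 reads covers counting error only. Whether replicates were separate cultures is not stated in the labels, and the p-values therefore cover the spread between libraries alone, which may be technical. The miRNAs, the lists and the tests were chosen with earlier results of these data known, and the lists hold chosen forms of a family, not every measured one. Named are all called miRNAs, the next 5 by p, the 10 most abundant, up to 4 members of each list, the called seeds and hairpins, and the 10 largest differences without overlap, the last and the next 5 with a mean of at least 10. Other miRNAs named beside these (cluster neighbours, other arms, and those of largest spread) were chosen after their values were seen.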

Additional observations from a re-analysis of the deposited data

How the results depend on the processing

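Against 30 called miRNAs, 47 passed with no filter beyond a read in any library, 47 at an adjusted p threshold of 0.1, and 12 to 25 with 1 library left out. Rescaling gave 21 (TMM factors, 13 and 8 by direction) to 33 (library total, 15 and 18), and DESeq2 gave 30. The replicate numbers pair nothing in the labels, and deviations of same-numbered libraries were correlated at -0.0992, -0.202 and -0.0301. With a replicate block 13 were called, all among the 30, including the 10 that passed every other setting and every omission of a library. Chosen after seeing the data, the block with TMM factors gave 17, and the block in edgeR gave 35. Called seeds fell from 7 to 4 with TMM factors and 3 with the replicate block, and ranged from 4 to 8 with 1 library left out. Called arm ratios went from 1 to 0 with a pseudocount of 5 or at least 50 in each arm, and ranged from 0 to 3 with 1 library left out. The difference in share of miRNA reads in the 10 most abundant miRNAs (0.181 percentage points) ranged from -0.0779 (without siIGF2BP2 replicate 1) to 0.484 with 1 library left out, and was -0.0648 without siIGF2BP3 replicate 3. The difference in share of miRNA reads in entries sharing sequence with other small RNAs (0.0848) ranged from -0.0554 (without siIGF2BP2 replicate 3) to 0.314, and was -0.00429 without siIGF2BP2 replicate 2. None of the calls changed direction under any alternative. miR-1291, uncalled at -0.36, stood at 0.91 (limma adjusted p = 0.00688) without siIGF2BP2 replicate 1 and down to -1.04 without another library. The causes of these changes were not tested. Intervals were wide for most of the 311 miRNAs with a mean under 10, and whether depth accounts for this was not tested. Closely related sequences may share reads.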
